A study of Mus musculus with 2 samples.

Results

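The genes described here are 8 genes used to follow horizontal cells of the mouse retina: the transcription factors Foxn4, Onecut1, Onecut2, Onecut3, Prox1 and Lhx1, and 2 genes of the differentiated cell, Calb1 and Gja10. Their probe sets were taken as all those to which the array's annotation gives exactly 1 gene symbol, that symbol being 1 of the 8. This gave 17 of the 45037 probe sets and 8 of the 18193 genes with a symbol on the array. The list was drawn up with the log2 ratios of these same arrays in view, so the genes count as chosen by the contrast described here, and their differences are a description and were not tested.

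The study set a wild-type mouse embryo beside a Sox11-/- littermate, and measured the retina of each. Both embryos had a C57BL/6 background and were taken at embryonic day 18 (E18). From 1 retina of each genotype, total RNA was amplified into biotin-labelled cRNA for an Affymetrix mouse array, giving 2 arrays. Sox11 is a SoxC transcription factor of differentiating neurons, and the mutation is described as a loss of function; its allele, and whether every cell of the embryo carries it, were not given in the sources used here.

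With 1 array per genotype there was no replicate, and every value below compares 2 arrays only. Of the 6 Sox11 probe sets, 5 were lower on the knockout array, and their log2 ratios ran from -3.64 to 1.08; which part of the gene is missing is not stated, and probe sets outside it check nothing. The values show the same trimmed mean on both arrays, and their log2 values correlated with a Pearson r of 0.979 over 23581 probe sets above a minimum given below, probe sets not being independent replicates. Sex-linked transcripts differed too. Xist, which coats the inactive X chromosome, gave 12.3 on the wild-type and 922.7 on the knockout array with its brightest probe set, and the Y-linked gene Eif2s3y read 214.0 and 4.7. Genotype can therefore not be told apart from sex, or from any other difference between these 2 embryos, dissections and hybridisations.

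Horizontal cells are inhibitory interneurons of the outer retina that contact photoreceptor terminals and are among the earliest retinal neurons to be born. Foxn4 makes progenitors competent for horizontal and amacrine fates, partly through Ptf1a. The Onecut factors and Prox1 then direct the horizontal cell fate, Lhx1 places the cells in their layer, and calbindin (Calb1) and connexin 57 (Gja10) belong to the mature cell. Most of these genes are not limited to this cell: Onecut1 and Onecut2 are also found in ganglion cells and cone precursors, Prox1 in progenitors, amacrine cells, lens and lymphatic endothelium, and Calb1 in amacrine and ganglion cells.

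On the knockout array, Onecut1, Onecut2, Lhx1 and Prox1 were higher than on the wild-type array on every passing probe set of theirs (except 1 of Prox1 after quantile normalization), Foxn4 was nearly level, and Calb1 was slightly lower. Onecut3 and Gja10 were too dim on both arrays to be compared. Intensities are given as deposited, on a linear scale. A probe set was compared if it reached 18.6 on at least 1 array. That value, the low-value filter, is the median of all intensities on both arrays, which stands in for a background because no detection calls were used. The log2 ratio is knockout minus wild type of log2(intensity + 5), a scale on which the difference of dim probe sets is understated. In whole retina, more cells of a type and more RNA per cell cannot be told apart.

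Of the 17 probe sets, 11 passed that filter, and they belong to 6 of the 8 genes. No passing probe set reached 2-fold in either direction, a size that 1.87% of all passing probe sets reached (1.47% higher and 0.399% lower). Of those 2-fold differences over the whole array, 78.7% were higher on the knockout array, against 66.7% after quantile normalization and 67.5% after loess normalization. At 1.5-fold, a size chosen after the data were seen, 3 of the 11 were higher (background 6.29%) and 0 were lower (background 2.15%). The 3 were 1 probe set each of Onecut1, Onecut2 and Lhx1, and 2 remained above that size after quantile or loess normalization and 1 with a pseudocount of 18.6. With no pseudocount, 1 probe set of Onecut2 reached 2-fold. A positive log2 ratio was found for 10 of the 11, and for 54.8% of all passing probe sets. For 2 of the 10, Onecut1 1421447_at and Lhx1 1421951_at, the filter itself fixed that direction, since they passed only by their knockout value. Onecut1 1421447_at is also 1 of the 3 at 1.5-fold. The log2 ratios of the 11 ran from -0.16 to 0.94 with a median of 0.23, against a median of 0.03 over all passing probe sets. The shares given here are over probe sets of all levels, and those of dimmer probe sets are given below. None of these shares was used as support, since the genes were listed with this contrast known.

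**Figure D1:**
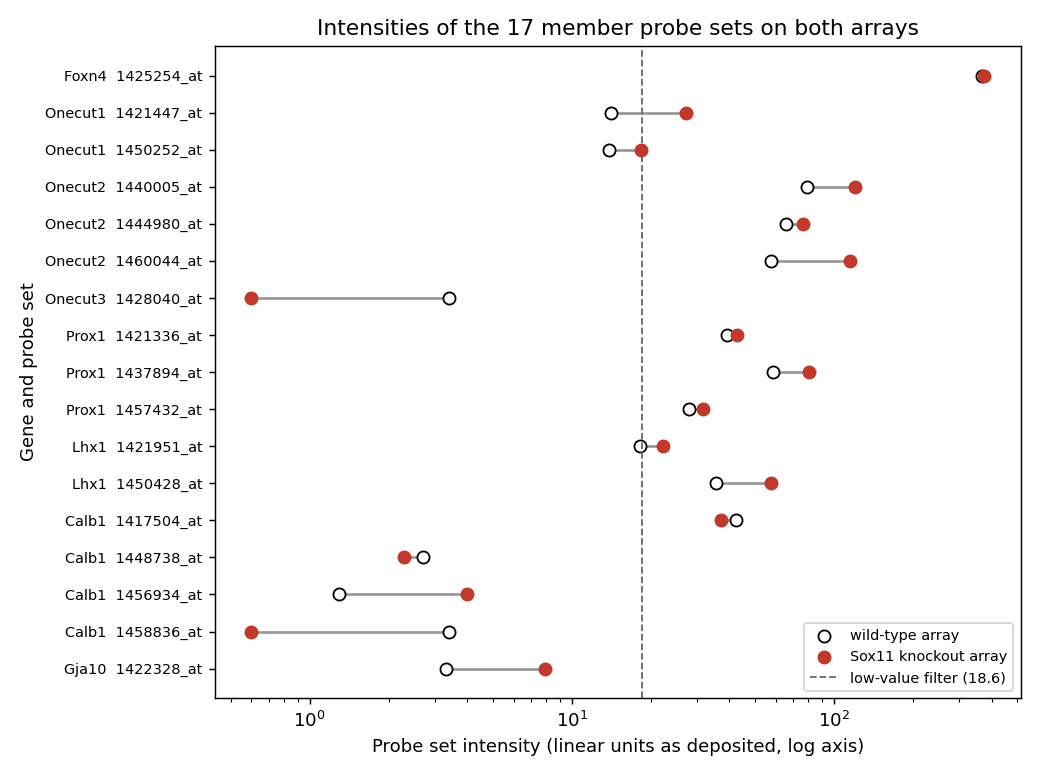
Intensity of each of the 17 probe sets on the wild-type array (open circles) and the Sox11 knockout array (filled circles), on a log axis; the dashed line is the low-value filter of 18.6. As deposited, the filled circle lies to the right for all probe sets of Onecut1, Onecut2, Prox1 and Lhx1 (Prox1 1421336_at turns after quantile normalization), while Onecut3, Gja10 and 3 of the 4 Calb1 probe sets lie left of the line on both arrays.

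Foxn4, the forkhead factor of the competent progenitor, was level. Its single probe set, 1425254_at, read 366.4 on the wild-type array and 373.9 on the knockout array. The log2 ratio was 0.03, and it turned to -0.00132 when the log2 ratios were centred on their median, so it has no direction. Foxn2 and Foxn3, the other members of its family past the filter, had log2 ratios of 0.03 and 0.17, and Foxn1 did not pass. The linear ratio of Foxn4, knockout over wild type, was 1.02.

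Onecut2, a cut-homeodomain factor, had the largest log2 ratio of any member probe set, and its probe sets also differed most among themselves. The probe set 1460044_at read 57.8 on the wild-type array and 115.8 on the knockout array, a ratio of 2.003 on the linear scale and a log2 ratio of 0.94. With 78.9 and 120.4, 1440005_at had a log2 ratio of 0.58, which fell just short of 1.5-fold on the log2(intensity + 5) scale although the linear ratio was 1.53. The last, 1444980_at, read 65.5 and 76.6, with a log2 ratio of 0.21. All 3 were higher on the knockout array, but by amounts from 1.17-fold to 2.003-fold. The range of 0.73 log2 units between them compares with a median range of 0.35 over the 1438 genes with 3 passing probe sets, and 10.7% of those genes had a range at least as wide.

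Onecut1, the paralogue that acts with Onecut2 in the retina, was near the filter on both of its probe sets. The probe set 1421447_at read 14.1 on the wild-type array and 27.4 on the knockout array, so that it passed only by its knockout value. The log2 ratio was 0.76, and measured against the filter value the knockout was at least 1.47-fold higher. The probe set 1450252_at, designed from the same transcript record, read 13.9 and 18.4 and fell just short of the filter. Both were higher on the knockout array, and both wild-type values lay below 18.6, so the size of the Onecut1 difference depends on the scale: it was 0.49 with a pseudocount of 18.6 and 0.96 with none.

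Onecut3, the third paralogue, was below the filter on both arrays. Its probe set 1428040_at read 3.4 on the wild-type array and 0.6 on the knockout array, so no fold is given. The difference between the paralogues is thus between 2 that were higher on the knockout array and 1 that could not be compared.

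Prox1, the homeobox factor that moves progenitors out of the cell cycle towards the horizontal cell fate, was higher on all 3 of its probe sets by small amounts. The probe set 1437894_at, the brightest, read 58.5 on the wild-type array and 80.7 on the knockout array, a log2 ratio of 0.43. For 1421336_at the intensities were 39.1 and 42.6 and the log2 ratio 0.11, and for 1457432_at they were 28.0 and 31.8 and the log2 ratio 0.16. After quantile normalization 1421336_at gave -0.02, so its direction is not settled. The annotated antisense transcript of the locus, Prox1os, read 45.9 and 29.7, a log2 ratio of -0.55, and so differed in the other direction.

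Lhx1, the LIM homeobox factor that sets the laminar position of horizontal cells, was higher on both probe sets, which were designed from the same transcript record. The probe set 1450428_at read 35.5 on the wild-type array and 57.8 on the knockout array, a log2 ratio of 0.63. The dimmer of the pair, 1421951_at, read 18.2 and 22.3, a log2 ratio of 0.23, and passed only by its knockout value, at least 1.20-fold above the filter value. The pair were 0.40 log2 units apart, where the median over the 3284 genes with 2 passing probe sets was 0.20. The antisense transcript Lhx1os was level, at 21.1 and 20.6. Of the 7 LIM homeobox genes past the filter, Lhx1 among them, 4 were higher and 3 lower, with a median of 0.19. Isl2, a ganglion cell factor, had 0.61, and Lhx9, found in amacrine cells, had -0.50.

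Calb1, the calcium buffer calbindin, was slightly lower on the knockout array on its passing probe set, unlike Onecut1, Onecut2, Lhx1 and Prox1. Its probe set 1417504_at read 42.3 on the wild-type array and 37.2 on the knockout array, a log2 ratio of -0.16. The other Calb1 probe sets were all below the filter on both arrays: 1448738_at, from the same transcript record as 1417504_at, read 2.7 and 2.3, 1456934_at read 1.3 and 4.0, and 1458836_at read 3.4 and 0.6. The Calb1 value thus rests on 1 of 4 probe sets. Calb2 (calretinin), the other EF-hand buffer past the filter, was level at 887.1 and 876.8.

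Gja10, the connexin that couples horizontal cells through gap junctions, read 3.3 on the wild-type array and 7.9 on the knockout array on 1422328_at, its single probe set. Both values are below the filter, and no fold is given. The 2 genes that mark the differentiated horizontal cell thus had 1 passing probe set of 5, so the cell type named by the gene list could be checked against its defining markers only on Calb1 1417504_at. Of 14 connexins on the array, 4 passed the filter, 2 higher and 2 lower, and Gja1 had 0.54 on its brightest probe set, with its 6 passing probe sets between 0.19 and 1.64.

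**Figure D2:**
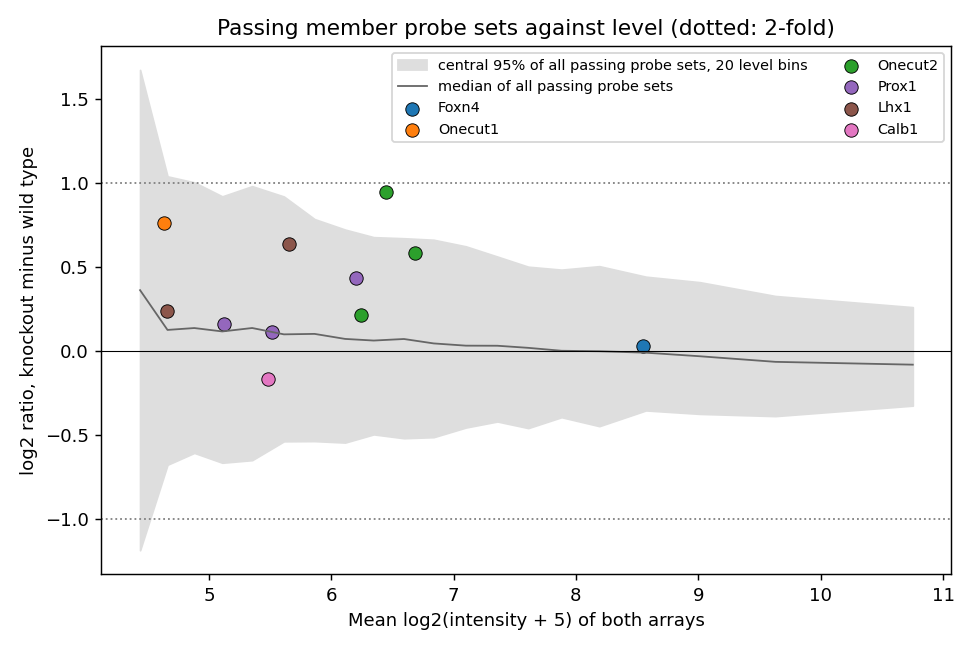
Log2 ratio of the 11 passing probe sets (knockout minus wild type, y axis) against their mean log2(intensity + 5) on both arrays (x axis); the grey area is the central 95% of all passing probe sets in 20 bins of level, the grey line their median, and dotted lines mark 2-fold. The point of Onecut2 at 0.94 lies above the grey area, and the other 10 lie inside it.

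The spread of ratios depended strongly on level, and 10 of the 11 passing probe sets were in the dimmer part of the range. When all passing probe sets were ordered by level and cut into 4 equal bands, 4 of the 11 lay in the lowest band, 6 in the next, 0 in the third and 1, that of Foxn4, in the highest. In the lowest band the central 95% of log2 ratios lay between -0.76 and 1.18, and in the next between -0.53 and 0.77. The Onecut2 probe set 1460044_at, at 0.94, lay beyond the central range of its band, where 1.14% of probe sets were as high or higher. Next came Lhx1 1450428_at and Onecut2 1440005_at, with 4.55% and 5.95% of their band as high or higher. For Onecut1 1421447_at, although its log2 ratio was larger than theirs, the share was 9.60%, because it lay in the lowest band. The 3 Prox1 probe sets lay well inside their bands, with 12.0% as high or higher for 1437894_at, 45.3% for 1421336_at and 49.6% for 1457432_at. So did the remaining passing probe sets of Onecut2 and Lhx1, with 31.3% for 1444980_at and 42.5% for 1421951_at. Calb1 1417504_at also lay well inside its band, where 76.8% of probe sets were as high or higher. The median log2 ratio of all probe sets was itself 0.15 in the lowest band and 0.08 in the next. At least 1.5-fold higher were 16.2% of all probe sets in the lowest band and 5.78% in the next. A positive log2 ratio was found for 63.7% and 60.4% of them.

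A value per gene was taken from the brightest passing probe set. On that basis 5 of the 6 measured genes were higher on the knockout array, where 47.7% of all 11557 genes were. The count includes Foxn4 at 0.03, and it was 4 of 6 after centring on the median log2 ratio. It also includes Onecut1, which passed only by its knockout value, so that the filter fixed its direction. The median of the 6 was 0.51, against -0.01 over all genes. Both backgrounds are over genes of all levels, whereas all of the 6 but Foxn4 took their value from the lowest band or the next. In those bands 63.7% and 60.4% of all probe sets were positive. With the wild-type value of Onecut1 set to the filter, the median of the 6 was 0.44. With the median over the probe sets of each gene in place of the brightest it was 0.30, because the dimmer probe sets of Prox1 and Lhx1 had the smaller ratios. In every setting that gave a value, 4 genes stayed positive: Onecut1 ranged from 0.49 to 0.96, Lhx1 from 0.43 to 0.70, Onecut2 from 0.51 to 0.61 and Prox1 from 0.16 to 0.46. Calb1 ranged from -0.28 to -0.13 and was negative in each setting that gave a value for it. Over the whole array, probe sets of the same gene had log2 ratios with a pooled SD of 0.26, which is a spread between probes and not between animals.

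**Figure D3:**
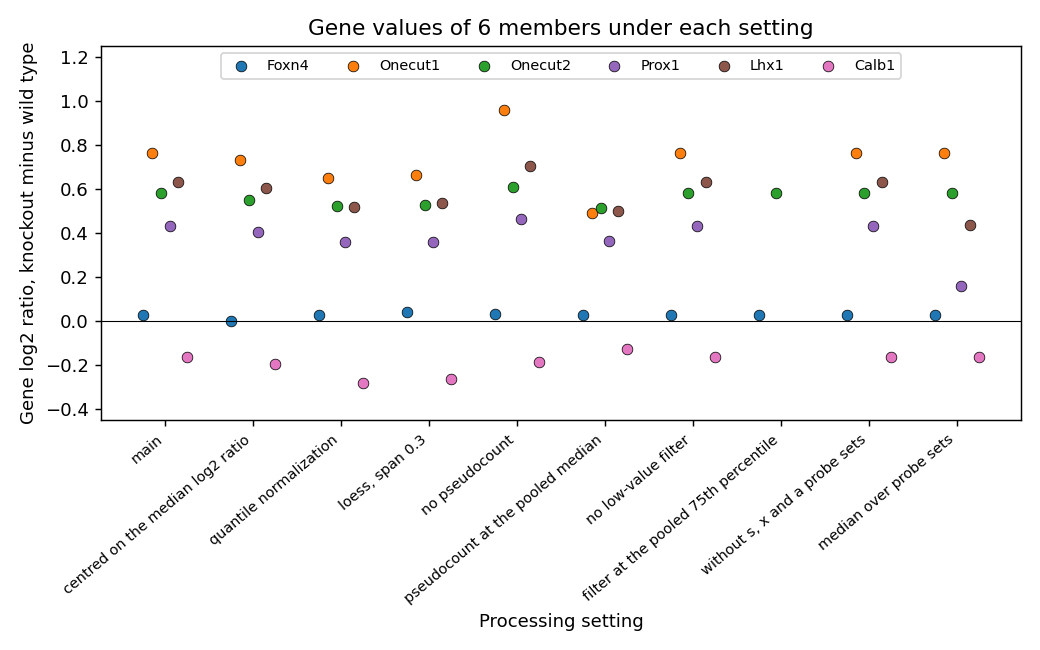
Gene log2 ratio (knockout minus wild type, y axis) of the 6 members with a value, under each processing setting (x axis); each point is 1 gene in 1 setting, and with the filter at the 75th percentile only Onecut2 and Foxn4 have a value. Onecut1, Onecut2, Lhx1 and Prox1 stay above 0, between 0.16 and 0.96, Foxn4 stays near 0 and Calb1 below it.

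Since 4 genes were higher on every passing probe set as deposited, the sequences before the starts of the 3 of them that the promoter table holds are shown, with the letters that SOX, Onecut and basic helix-loop-helix factors read. Promoter windows matched 5 of the 8 genes (Onecut1, Prox1, Lhx1, Foxn4 and Gja10). They come from RefSeq, build GRCm38.p6, and each holds the 250 bases before an annotated start, written 5′ to 3′ on the strand of the gene. Capitals mark matches, on either strand, to ACAAT or ACAAAG (SOX), ATCAAT (Onecut) or CANNTG (the general E-box of basic helix-loop-helix factors). The patterns were chosen with the values known. No matches overlapped.
Onecut1, chr9:74861671-74861920, plus strand: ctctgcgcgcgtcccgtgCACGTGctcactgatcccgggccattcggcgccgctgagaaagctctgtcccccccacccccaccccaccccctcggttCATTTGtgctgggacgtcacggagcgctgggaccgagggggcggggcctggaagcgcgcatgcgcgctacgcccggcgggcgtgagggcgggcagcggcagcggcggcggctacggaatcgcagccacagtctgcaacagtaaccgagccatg
Lhx1, chr11:84525535-84525784, minus strand: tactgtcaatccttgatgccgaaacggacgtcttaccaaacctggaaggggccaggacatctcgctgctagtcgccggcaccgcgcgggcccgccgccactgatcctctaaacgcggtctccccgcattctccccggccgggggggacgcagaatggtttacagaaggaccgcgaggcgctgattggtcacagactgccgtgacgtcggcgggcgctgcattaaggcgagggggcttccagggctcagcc
Prox1, upstream start, chr1:190170828-190171077, minus strand: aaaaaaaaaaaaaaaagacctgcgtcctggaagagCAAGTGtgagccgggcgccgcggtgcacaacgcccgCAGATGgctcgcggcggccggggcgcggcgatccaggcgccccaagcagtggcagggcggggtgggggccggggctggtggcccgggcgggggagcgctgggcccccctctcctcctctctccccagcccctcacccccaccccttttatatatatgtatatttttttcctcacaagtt
Prox1, downstream start, chr1:190169516-190169765, minus strand: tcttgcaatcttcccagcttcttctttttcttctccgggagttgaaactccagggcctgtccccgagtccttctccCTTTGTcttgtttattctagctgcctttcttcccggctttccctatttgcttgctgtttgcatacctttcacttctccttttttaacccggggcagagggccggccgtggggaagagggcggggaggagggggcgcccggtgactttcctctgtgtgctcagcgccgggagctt
The window of Onecut1 and that of the upstream Prox1 start each hold 2 E-boxes, and 66.2% of the 32851 windows in the table hold at least 1. The downstream Prox1 start has 1 match to ACAAAG, which 16.5% of windows hold. The Lhx1 window has no match to any of the 4 patterns, and neither has that of Foxn4, the gene that was level. No match to ACAAT, found in 27.7% of all windows, or to ATCAAT, found in 6.72%, lay in the 4 windows shown, while the Gja10 window has 1 to ACAAT and 2 E-boxes. The windows shown are rich in G and C, with 71.6% for Onecut1, 64.8% for Lhx1 and 64.8% and 56.0% for Prox1, against a median of 52.4% over all windows. A match is a run of letters and not a binding site, and a window without a match says only that those letters are not in it.

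Other genes of the horizontal cell pathway did not share a direction. Of 20 such genes, from the partners of Foxn4 to neurofilaments and transmitter genes, 11 were higher and 9 lower on the knockout array, where 47.7% of all genes were higher. Their median log2 ratio was 0.04. Sall1, a zinc finger factor, read 11.1 and 30.2. It passed the filter only by its knockout value, so although its log2 ratio was 1.13 (0.943% of all genes were 2-fold higher on that scale), the measured bound is at least 1.62-fold and does not reach 2-fold. Atoh7, the factor required for ganglion cells that is also active in horizontal cell precursors, read 945.0 and 1731.0 on its brighter probe set. That probe set gave a log2 ratio of 0.87 and the other 1.20, on either side of 2-fold. At the other end were Gad1 and Slc32a1, which make and load GABA, the transmitter of horizontal and amacrine cells, with -0.65 and -0.47. Sall1, Atoh7, Gad1 and Slc32a1 are named because their ratios were the largest of the 20 in either direction. No contrast between genes of horizontal cell identity and transmitter genes can be drawn from them.

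Markers of other cells differed as well, both of cells that use the same factors and of macrophages, mesenchyme and rods. The counts below are over genes past the filter, of which 47.7% were higher over the whole array. Of 11 ganglion cell genes, which share Onecut1 and Onecut2, 9 were higher, with a median of 0.19 and summed intensities of 3055.3 (wild type) and 3569.4 (knockout). Of 7 cone genes, 5 were higher, with a median of 0.30 and sums of 1203.2 and 1278.0. Of 8 lens genes, which share Prox1, 6 were higher, with a median of 0.52 (0.36 with dimmer values set to the filter) and sums of 436.6 and 541.8. Of 8 amacrine cell genes, 6 were lower, with a median of -0.10 and sums of 1722.2 and 1580.2. Lyve1, a gene of lymphatic endothelium, where Prox1 is also used, and of some macrophages, read 18.9 and 48.5, and of the 3 endothelial genes past the filter 2 were higher (sums of 823.3 and 649.8). All 8 macrophage genes were higher (median 1.13, sums of 332.0 and 684.4), as were 7 of 8 mesenchyme genes (median 1.75, or 1.10 with dimmer values set to the filter, sums of 237.6 and 673.2), and all 5 rod genes were lower (median -1.12, or -0.81 at the filter, sums of 1027.5 and 413.3). Of the 8 mesenchyme genes, 6 were below the filter in the wild type and passed only by their knockout value, as did 2 lens genes, 1 macrophage gene and 1 amacrine gene, and 2 rod genes and 1 lens gene passed only by their wild-type value, so the filter itself fixed the direction of these. No gene of these 8 lists had its brightest probe set at 0 on either array. The part of any of these cells in the values of Onecut1, Onecut2, Lhx1 and Prox1 was not tested.

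**Figure D4:**
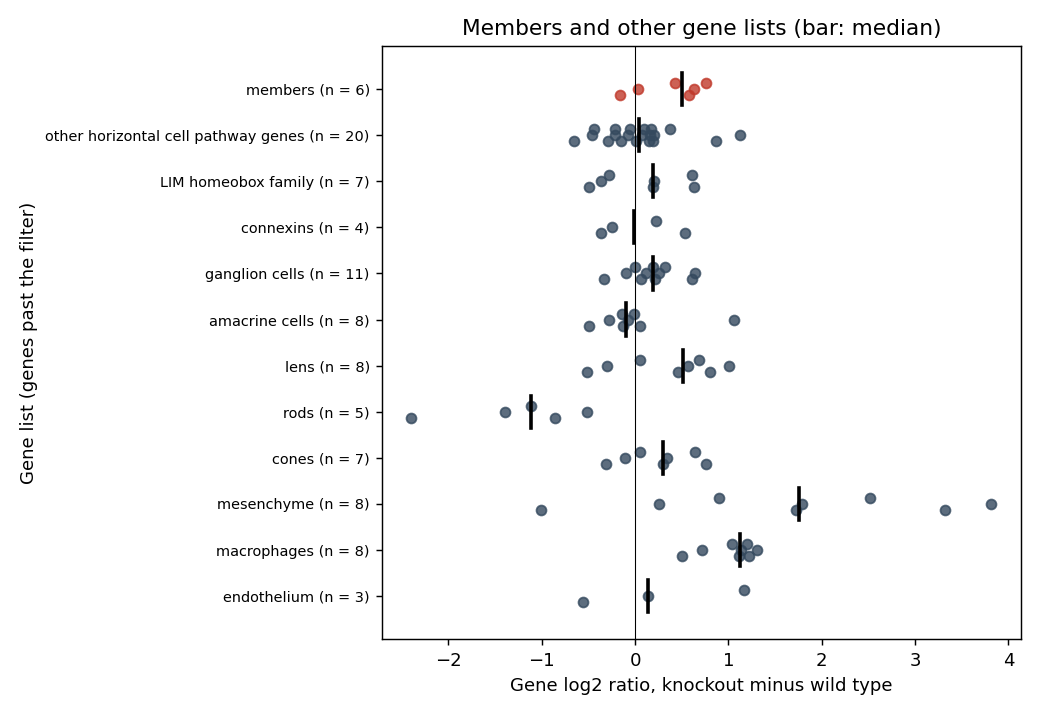
Gene log2 ratios (knockout minus wild type, x axis) of the members and of 11 other gene lists (y axis, with the number of genes past the filter); each point is 1 gene and each bar the median of its list. The members have a median of 0.51, the other horizontal cell pathway genes 0.04 and the ganglion cell genes 0.19, and the members lie within the spread of the pathway genes, from -0.65 to 1.13.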

How the data were processed

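Retinal RNA of 1 wild-type and 1 Sox11-/- embryo was measured on 1 array each, grouped by the labelled genotype. The authors deposited 1 linear intensity per probe set and array; their software and scaling steps were not given in the sources used here. On both arrays the trimmed mean (2% off each end) was 100. After 64 control probe sets were left out, 45037 remained, of which 23581 (52.4%) passed the filter of 18.6. The pseudocount of 5 is the 25th percentile of the pooled intensities. No normalization between arrays was added. Symbols came from the platform annotation, which gave 1 symbol for 34945 probe sets; the 932 with several and the 9160 with none were not named.

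The value of a gene was that of its brightest passing probe set, by mean log2 value. A dimmer array under 18.6 gave a bound, the brighter intensity over 18.6. Every member probe set was reported, and of 14 gene lists up to 4 genes with the largest ratios could be named; 2 of these lists, of the Prox family (Prox1 passed, Prox2 did not) and of endothelium, had few genes past the filter. The members and lists were chosen with earlier results of these data known. No test was possible, and the number of arrays limits the precision. Alternatives changed the normalization (median centring, quantile, loess with a span of 0.3), the pseudocount, the filter, the probe set types and the gene value. The procedure was tested on simulated data. Python 3.11.15, numpy 2.4.6, pandas 2.3.3 and statsmodels 0.14.6 were used.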

Additional observations from a re-analysis of the deposited data

How the results depend on the processing

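The median over the measured member genes stayed positive under all 9 alternatives, from 0.30 to 0.54, and the median of the other pathway genes from 0.01 to 0.09. The member genes were not the same throughout. With the filter at 109.4 only Foxn4 and Onecut2 remained (median 0.30), and with no filter the dim Onecut3 and Gja10 entered. Of 55 log2 ratios of passing member probe sets under other normalizations or pseudocounts, 54 moved by less than 0.26, the SD between probe sets of a gene on these arrays, used as a yardstick of size only, since there is no spread between replicates to set them against. Those of Foxn4 1425254_at and Prox1 1421336_at changed sign, both from values near 0. The count of member probe sets at 2-fold went from 0 to 1 (Onecut2 1460044_at) with no pseudocount, which raises the ratio of dim probe sets. The count at 1.5-fold in either direction, whose alternatives were chosen after seeing the data, was 3, all of them higher. It was 1 with the pseudocount at the pooled median, 6 with no low-value filter, which also admits probe sets below 18.6 on both arrays, and 1 with the filter at 109.4, where 3 member probe sets remained. Over all probe sets, 441 were 2-fold apart, against 772 with no pseudocount, 121 with the pseudocount at the pooled median, 1529 with no filter and 59 with the filter at 109.4. Dropping the probe sets with an s, x or a in their suffix removed 0 member probe sets. No paired analysis was possible because each genotype has 1 array. Dim signal limits Onecut1, Onecut3, Gja10 and most of Calb1.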
